A study of Mus musculus with 35 samples.

Results

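The regions described here are 628 stretches of the mouse genome that carried listed acetylation of histone H4 (H4ac) in resting macrophages, were missing from the H4ac lists at 60 and 120 min of lipopolysaccharide (LPS), and were listed again at 240 min. They were selected on H4ac list membership alone. Regions up to 10 kb wide from 8 H4ac lists were joined where they overlapped, which gave 24406 joined regions. A joined region was kept if both unstimulated lists and at least 1 of the 2 lists at 240 min held it, while none of the 4 lists at 60 and 120 min did. The 628 made up 2.57% of all joined regions and 4.64% of the 13548 held by both unstimulated lists. They are called returning regions below, for their place in the lists. As shown further on, many of them overlapped H4ac regions wider than 10 kb in at least 1 list at 60 or 120 min, though less often than resting regions in general did. Overlap with regions of 10 to 100 kb in all 4 of these lists was rarer, but more frequent than for resting regions in general. The absence of a narrow region there was thus not always an absence of listed acetylation. This goes against the word "lost", which is not used for them.

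The cells of all libraries were primary bone marrow macrophages of female C57BL/6 mice, wild type and aged 8 to 12 weeks. They were unstimulated or had received LPS, and proteins were located by chromatin immunoprecipitation and sequencing (ChIP-seq). H4ac had 2 libraries, lettered A and B, at each of 0, 60, 120 and 240 min of LPS. Set beside them were 7 libraries of RNA polymerase II (Pol II), 7 of the NF-κB subunit p50, 5 of the subunit p65, 3 of the transcription factor ATF3 and 5 of H3 trimethylated at lysine 27 (H3K27me3). The title of 1 H3K27me3 library gives 60 min with a delay of 7 h, while its time label is 480 min. The labels do not tie libraries to separate mice or cultures. The p-values below therefore reflect only how much libraries differed, which may be technical. Cell identity could not be checked against marker genes, because no gene annotation of the files' genome build was used.

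LPS, a glycolipid of the bacterial envelope, is sensed by Toll-like receptor 4 and activates macrophages through NF-κB and interferon signalling. Acetyl groups on the tail of histone H4 loosen its contact with DNA and neighbouring nucleosomes, are bound by bromodomain proteins, and mark active promoters and enhancers. Acetyltransferases add them and histone deacetylases remove them, so that the mark can change over minutes to hours. Pol II transcribes protein-coding genes. ATF3 is induced by LPS and other stresses and is known to restrain inflammatory genes, and H3K27me3 is the mark of Polycomb repression.

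Each library had 1 list of regions with no read counts. Depth is therefore unknown, and absence means only that no region was listed. The H4ac lists held 15256 to 28522 regions and those of the other targets 255 to 7728. Letter A gave longer H4ac lists than letter B at every time. The 240 min lists held 27235 regions (A) and 17894 (B), against 23682 and 15392 at 60 min and 23028 and 15256 at 120 min. The resting lists held 28522 and 21058. The title of the 240 min A library opens with a different number from those of the other A libraries. With each H4ac list shortened by score to the length of the shortest, 364 regions met the rule.

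Return at 240 min was the less common outcome for a resting H4ac region that had dropped out of the lists. Of the 2440 regions held by both unstimulated lists and by no list at 60 or 120 min, 628 (25.7%) were back at 240 min and 1812 were held at no LPS time. These 1812, called persistently absent regions, are the nearest comparison. Among the other courses, 8810 regions were held at 60, 120 and 240 min, 846 at 60 and 240 min but not at 120 min, 569 at 60 min only, 563 from 120 min on, 205 at 60 and 120 min but not at 240 min, and 115 at 120 min only. Regions held at 240 min only thus outnumbered those held at 60 min only or at 120 min only, and the 120 min lists were also the shortest in each letter. These counts follow from the rule and carry no test.

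**Figure D1:**
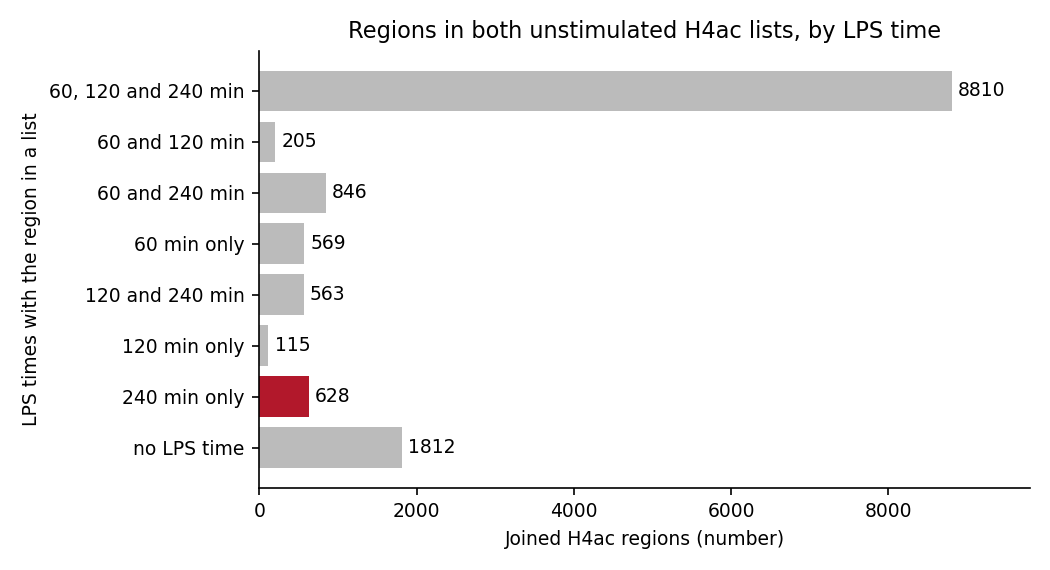
Number of joined H4ac regions, of those in both unstimulated lists, by the LPS times at which at least 1 list held them (horizontal axis, number of regions). The 628 returning regions, in red, stand between the 1812 held at no LPS time and the 569 and 115 held at 60 or 120 min only.

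The return rested largely on 1 library. The 240 min A list held 569 of the returning regions (90.6%) and the B list 250 (39.8%), with 378 in A only, 59 in B only and 191 in both. The regions held at 60 min only were divided in much the same way, with 409 in the 60 min A list only, 27 in B only and 133 in both. Without the 240 min A library 254 regions met the rule. The same pattern read within letter A alone gave 1008 regions and within letter B alone 1021, and 191 met the rule within both letters.

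Returning regions were mid-ranked at rest and low-ranked at 240 min. The score that the authors gave each listed region served to rank it within its own list, with 100 as the best. The best-scored piece of a returning region had a median rank of 57.2 in the resting A list and 51.2 in the resting B list, and of 27.4 and 26.7 in the 240 min lists that held it. Persistently absent regions stood lower at rest, with medians of 43.8 and 38.8. The 5710 regions held by all 8 lists stood at 84.2 and 72.2 at rest and at 84.4 and 72.4 at 240 min. In letter A 471 of 569 returning regions (82.8%) ranked lower at 240 min than at rest, with a median shift of -25.8 percentile points. In letter B 187 of 250 did (74.8%), with a median shift of -19.7. For regions in all 8 lists, which stood far higher at rest and are no matched set, the shares were 51.9% and 52.2%. These ranks come from the lists that chose the regions and from lists of unequal length, so they describe the regions and test nothing. The listed pieces also covered less of the joined region, with medians of 85.4% (A) and 83.4% (B) at rest and 71.4% and 68.3% at 240 min. The returning regions less covered at 240 min than at rest were 59.6% (A) and 58.0% (B), beside 55.6% and 49.6% of regions in all 8 lists. Regions held at 60 min only ranked at medians of 30.2 and 26.8 in the 60 min lists, so a low rank at the single LPS time of listing was shared by both courses.

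**Figure D2:**
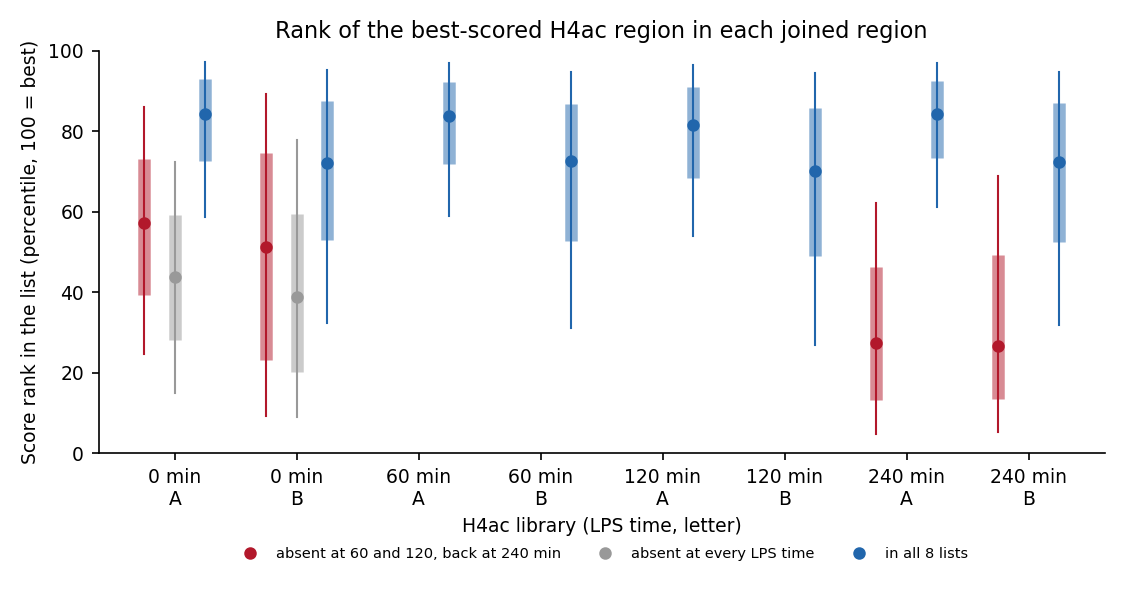
Rank of the best-scored H4ac piece (vertical axis, percentile of the list, 100 = best) in each H4ac library (horizontal axis). Points are medians over regions, bars span the 25th to 75th percentile and lines the 10th to 90th. Returning regions (red) had medians of 57.2 and 51.2 at rest and 27.4 and 26.7 at 240 min, and by the rule no value at 60 or 120 min.

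The extremes of this ranking differed widely. The returning region with the best mean rank at rest lay on chromosome 7 at 109044121 to 109057720 (13600 bp, build mm9), with ranks of 99.8 (A) and 99.7 (B) at rest and 97.2 and 96.4 at 240 min. The region on chromosome 1 at 137554551 to 137557390 had ranks of 99.3 and 99.5 at rest and 57.1 and 44.2 at 240 min. The region on chromosome 14 at 65961901 to 65966260 had ranks of 98.2 and 99.2 at rest and came back in the A list only, at 25.4. The region on chromosome 7 at 152232671 to 152236440 had ranks of 97.6 and 96.4 at rest, and its return was a single piece of 950 bp in the A list at rank 0.494. High resting ranks were thus followed by returns from near the top to near the bottom of the 240 min list.

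Returning regions were wider than persistently absent ones. The width is that of the join, so each 240 min list that held a returning region could only widen it. Persistently absent regions were joined from the resting lists alone. How much of the gap this made was not tested. The widths of returning regions had a 10th to 90th percentile of 1010 to 9010 bp, a range of 190 to 27250 bp and 2.52 Mb in all. In kb the median was 2.8 for returning regions, 1.92 for persistently absent regions, 2.79 for regions in all 8 lists and 2.25 for all joined regions. Regions back in both 240 min lists were the widest, with a median of 3720 bp, against 2300 bp for those back in A only and 2910 bp for those back in B only. The 3 longest spanned 27250 bp (chromosome 9, 37036851 to 37064100), 20800 bp (chromosome 19, 46573901 to 46594700) and 18520 bp (chromosome 1, 129900131 to 129918650). At the 10 kb limit of the rule, 44 returning regions had a widest single piece of 9 to 10 kb, and 18 were touched at 60 or 120 min by a region just over it, of 10 to 11 kb. A limit of 9 kb gave 629 returning regions and one of 11 kb gave 609.

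The deposited lists are nested, with narrow regions inside wider ones, and the wider ones show a second course. Of the 628 returning regions, 306 (48.7%) lay in an H4ac region of 10 to 100 kb in at least 1 of the 4 lists at 60 and 120 min. An overlap of at least 1 bp counted. The share was 35.5% for persistently absent regions, 69.1% for regions in all 8 lists and 60.4% for all regions in both unstimulated lists. Lying in a wider region was thus common in every class, and less so for returning regions than for resting regions in general. In all 4 lists 75 did (11.9%), against 7.48% of all regions in both unstimulated lists. By library, 34.2% (A) and 32.2% (B) of the returning regions lay in such a region at rest, 36.3% and 25.6% at 60 min, 31.8% and 23.1% at 120 min, and 32.6% and 26.9% at 240 min. These shares did not drop at 60 min in letter A, while the narrow listing by the rule went to 0. For 122 returning regions (19.4%) the wider H4ac region was listed at 60 or 120 min and in neither unstimulated list, a share near the 20.7% of all regions in both unstimulated lists. In no H4ac region over 10 kb, however wide, at 60 or 120 min lay 106 (16.9%), against 12.8% of all regions in both unstimulated lists. The widest region of these lists spanned 123415570 bp (60 min, B), so lying in one says little about acetylation at the place itself.

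A stricter count kept wider regions that covered at least 50% of the returning region and ranked in the upper 50% of their list by score. By this count 93 returning regions (14.8%) were held at 60 or 120 min in at least 1 list, beside 7.34% of persistently absent regions, 19.5% of all regions in both unstimulated lists and 22.8% of regions in all 8. Of the 93, 14 were held so in all 4 lists, 11 of them in neither unstimulated list. The matching counts were 78 and 52 of the 13548 regions in both unstimulated lists, and 22 and 19 of the 1812 persistently absent. In this strictest class the share of returning regions was thus above that of resting regions in general, unlike the count for at least 1 list. The threshold was chosen after the data had been seen. The region on chromosome 11 at 81834261 to 81838260 was 1 of the 11. At rest the A list held 2 pieces of 590 and 540 bp in it and the B list 1 of 2600 bp. At 60 min it lay inside regions of 20410 bp (A) and 20460 bp (B), with scores of 4.6813 and 3.8941, and at 120 min inside regions of 53080 and 53280 bp, with scores of 3.0107 and 2.5934. At 240 min it was listed as pieces of 4000 and 3940 bp. It was touched by none of the resting Pol II list and by all 6 LPS lists of Pol II, by 2 of 4 LPS lists of p50 and by 1 of 3 of ATF3. The chromosome 7 region at 109044121 likewise lay inside regions of 14940 and 13910 bp at 60 min and of 14090 and 14400 bp at 120 min. Here the narrow regions were replaced in the lists by wider ones, whereas the chromosome 7 region at 152232671 lay in no region of 10 to 100 kb at any of those times.

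**Figure D3:**
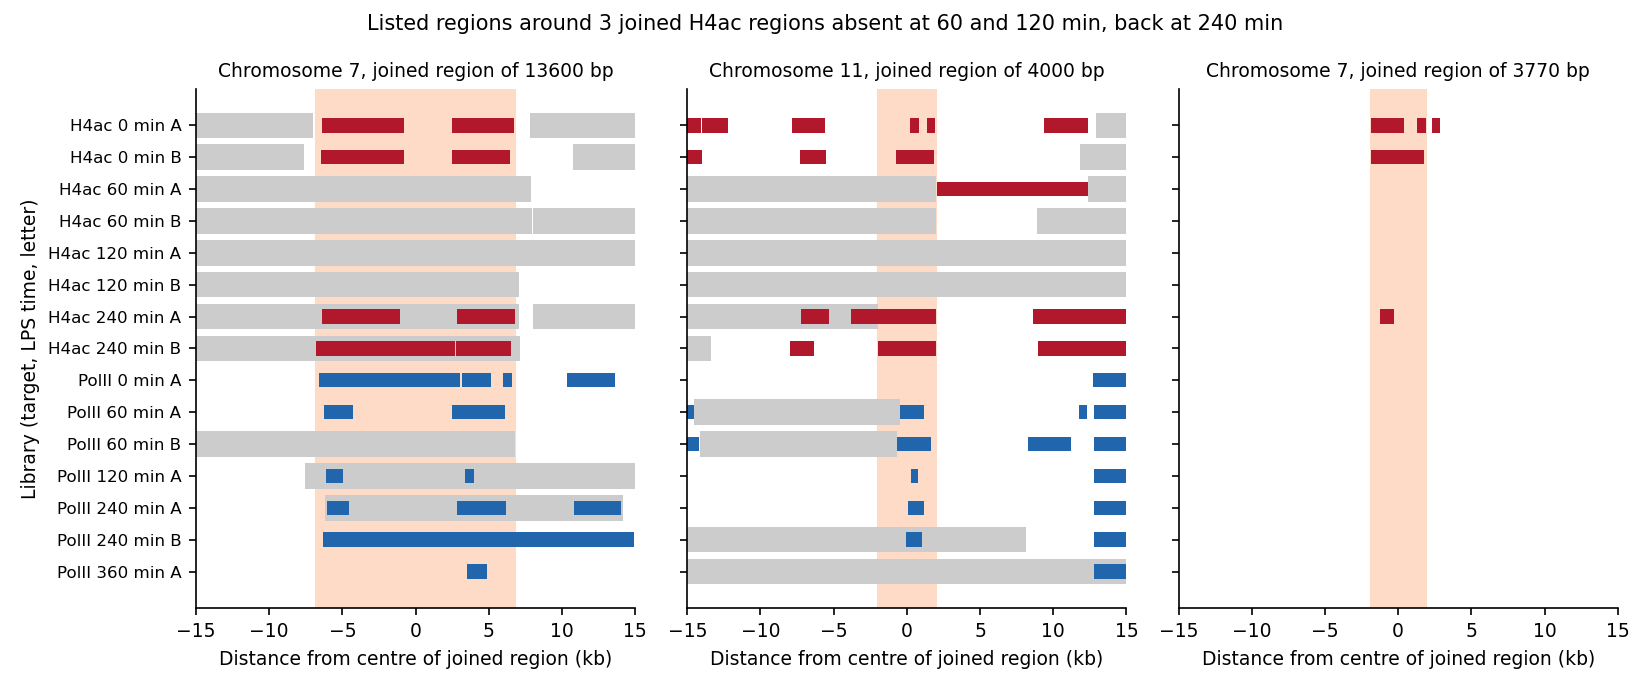
Listed regions of H4ac (red) and Pol II (blue) up to 10 kb, and of either target from 10 to 100 kb (grey), around 3 returning regions (shaded), by library (vertical axis) and distance from the centre (horizontal axis, kb). At 60 and 120 min the first 2 lay inside grey regions, the narrowest of 13910 bp, and the last, of 3770 bp, in none.

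The 306 regions with a wider H4ac region at 60 or 120 min and the 322 without it differed in other ways. The median width was 3780 bp with it and 2140 bp without it. The median resting rank was 62.0 (A) and 60.4 (B) with it, and 51.9 and 45.1 without it. At least 1 Pol II list touched 127 of the 306 (41.5%) and 37 of the 322 (11.5%). Persistently absent regions divided in the same direction, at 33.6% with and 6.84% without. Pol II shares of the 322 are given below beside those of all 628.

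Pol II was listed on a minority of returning regions and on fewer of them in every LPS library than at rest. The resting Pol II list touched 116 of 628 (18.5%), against 24.3% of all joined H4ac regions. At 60 min the A list touched 60 (9.55%, against 17.9% of all) and the B list 66 (10.5%, against 18.9%). At 120 min 33 were touched (5.25%, against 14.4%). At 240 min the A list touched 47 (7.48%, against 16.5%) and the B list 68 (10.8%, against 20.2%). At 360 min 32 were touched (5.10%, against 9.54%). The 6 LPS libraries gave 8.12% ± 2.56 (SD, n = 6), and the single resting library lay above all of them, as it did for all joined regions (24.3% against 16.3% ± 3.85). With 1 resting library this difference has no replicate check. The Pol II lists also differed in length, with 7436 regions at rest and 5519, 6061, 4559, 5144, 7728 and 2948 in the LPS libraries in the same order. The 240 min B list was the only LPS list longer than the resting one, and the 360 min list was the shortest. On the 322 without a region of 10 to 100 kb at 60 or 120 min, Pol II was listed at 7.14% at rest and at 2.8%, 3.11%, 0.932%, 2.48%, 3.73% and 0.621% in the LPS libraries in the same order, again highest at rest. Relative to all joined regions, the share on returning regions was 0.759 at rest and 0.365 to 0.555 in the 6 LPS libraries, lowest at 120 min. For persistently absent regions it also fell, from 0.44 at rest to 0.185 to 0.329 under LPS, lowest at 360 min.

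Pol II was listed more often on returning than on persistently absent regions, in 7 of 7 libraries. The persistently absent regions were touched at 10.7% at rest and 4.36%, 6.24%, 2.92%, 3.75%, 5.74% and 1.77% in the LPS libraries in the same order. The difference was 4.53 percentage points ± 1.74 (SD, n = 7), from 2.33 at 120 min to 7.76 at rest (exact two-sided sign-flip test over libraries, p = 0.0156, the smallest that 7 libraries allow). The 7 libraries came from rest and several LPS times and were read on the same regions. This test therefore covers the spread between libraries and not between regions or replicates of 1 condition. The 2 sets also differed in median resting rank, at 57.2 (A) and 51.2 (B) against 43.8 and 38.8, and no adjustment was made for it. The difference depended on width. It was 10.0 points for joined regions of 6 kb and wider, 1.32 for those under 3 kb and 1.29 without the regions that lay in a wider H4ac region at 60 or 120 min. With Pol II regions up to 10 kb in place of 100 kb it was 1.51, in each of these with every library in the same direction. The first 3 of these settings were chosen after seeing the data. It reversed to -1.82 points (exact sign-flip p = 0.0469) when only H4ac regions up to 1 kb were used. In the narrowest class, under 1500 bp, at least 1 Pol II list touched 9.7% of the returning and 11.5% of the persistently absent regions. Against regions in all 8 H4ac lists, returning regions had 24.7 points less Pol II on average, a difference of -24.7 ± 4.76 (SD, n = 7, exact sign-flip p = 0.0156). Regions in all 8 lists also ranked far higher at rest, at medians of 84.2 (A) and 72.2 (B), so they are no matched set.

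**Figure D4:**
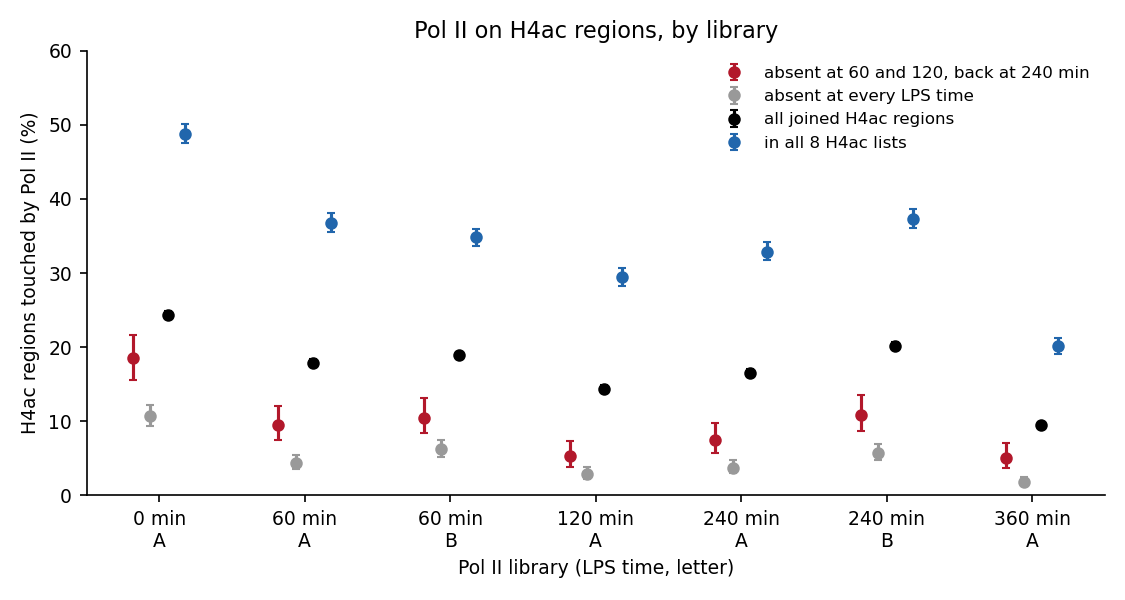
Share of H4ac regions touched by a Pol II region up to 100 kb (vertical axis, %) in each of 7 Pol II libraries (horizontal axis). Points are shares and bars 95% Wilson intervals, which cover counting error over regions only. Returning regions (red) ran from 18.5% at rest to 5.10% at 360 min, above persistently absent regions (grey) and below all joined regions (black) in each library.

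Over all 7 lists, 164 returning regions (26.1%) were touched by Pol II at least once, against 16.3% of persistently absent regions, 39.5% of all joined regions and 69.1% of those in all 8 H4ac lists. Of the 116 with resting Pol II, 55 (47.4%) had it in no LPS list, compared with 30.0% of the 4492 such regions among all held by both unstimulated H4ac lists and 57.7% of the 194 among persistently absent regions. At 60 min 36 (31.0%, A) and 38 (32.8%, B) of the 116 still had Pol II, at 120 min 20 (17.2%), at 240 min 29 (25.0%, A) and 42 (36.2%, B), and at 360 min 20 (17.2%). The corresponding shares of the 4492 were 48.8%, 47.2%, 36.3%, 40.8%, 47.2% and 27.3%. For the 194 they were 23.7%, 27.8%, 16.0%, 17.5%, 27.3% and 9.79%. The share of returning regions that stayed listed lay between those of the 2 sets at each time, and these differences were not tested. Another 48 of the 512 without resting Pol II (9.38%) had it in some LPS list, against 22.0% of such regions in both unstimulated H4ac lists.

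Pol II seldom followed the course that defined the regions. Of the 116, 11 (9.48%) had Pol II at rest, in no list at 60 or 120 min and again at 240 min, beside 7.54% of all joined regions with resting Pol II. The 9 returning regions touched in all 7 Pol II lists included the chromosome 7 region at 109044121, the region on chromosome 1 at 74294351 to 74296550 and the region on chromosome 5 at 136380691 to 136392030. All 3 lay in a wider H4ac region in each of the 4 lists at 60 and 120 min. Pol II was thus listed throughout at places where narrow H4ac came and went. Of the 9, the region on chromosome 10 at 80825841 to 80831840 had the weakest return in the A list, at rank 1.73.

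ATF3 at 240 min was the only one of the other targets listed more often on returning regions than on all joined regions in each of its libraries. The A list touched 91 (14.5%, against 9.72%), the B list 4 (0.64%, against 0.467%) and the C list 11 (1.75%, against 0.967%). Persistently absent regions were touched at 6.95%, 0.331% and 0.662%. The excess over all joined regions was shared by all regions in both unstimulated H4ac lists, at 11.4%, 0.554% and 1.14%. Regions held at 60 min only reached 16.3% in the A list, but 0.351% in B and 0.527% in C, below all joined regions. The difference between returning and persistently absent regions was 2.98 points ± 3.97 (SD, n = 3, exact two-sided sign-flip p = 0.25, the smallest that 3 libraries allow). Without library A, whose list was the longest, it was 0.698 points. The A, B and C lists held 3761, 1237 and 2558 ATF3 regions up to 10 kb, so their lengths differed less than their shares of H4ac regions. Width moved with the ATF3 share. In 4 classes of rising width, with bounds at 1500, 3000 and 6000 bp, the A list touched 3.73%, 8.87%, 20.8% and 26.1% of returning regions and 2.54%, 6.15%, 14.1% and 23.4% of all joined regions. Persistently absent regions were touched at 2.55%, 8.39%, 9.54% and 12.5%. Under 3000 bp returning and persistently absent regions thus lay close together, and above it they stood apart.

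ATF3 was also unevenly spread over the kinds of return. The A list touched 43 of the 191 regions back in both 240 min lists (22.5%), 15 of 59 back in B only (25.4%) and 33 of 378 back in A only (8.73%). The regions back in both lists were also the widest. Of the 91 with ATF3 in the A list, 33 (36.3%) had Pol II in some list, against 24.4% of the 537 without it. A like gap stood over all joined regions, at 48.6% and 38.6%. By the rule for regions with most ATF3 and p65 lists, the region on chromosome 15 at 63432861 to 63449380 was 1 of 3 with 3 such lists, with p65 at 60 min (A) and 120 min (C), ATF3 in C and no Pol II. On chromosome 2 at 30572321 to 30575300, ATF3 was listed in B and C, and Pol II at rest only.

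The NF-κB subunits were rare on returning regions. At 60 min of LPS, p50 lists touched 7 (A, 1.11%, against 3.15% of all joined regions), 12 (B, 1.91%, against 2.69%), 13 (C, 2.07%, against 3.13%) and 1 (D, 0.16%, against 0.557%). The unstimulated p50 lists touched 4 (A, 0.64%, against 0.824%), 2 (C, 0.32%, against 0.811%) and 1 (D, 0.16%, against 0.393%). The LPS libraries averaged 1.31% ± 0.876 (SD, n = 4) and the unstimulated ones 0.372% ± 0.243 (SD, n = 3). The groups overlapped, because LPS library D was as low as unstimulated library D, the lowest of its group. Both D lists were the shortest of their groups, with 324 (LPS) and 354 (unstimulated) regions, and both were also lowest over all joined regions. The difference of 0.942 points missed the threshold (two-sided exact permutation test, p = 0.229, where 0.0571 is the smallest possible). In all, 23 returning regions (3.66%) met p50 in some list, against 5.12% of all joined regions.

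The few regions with repeated p50 are named for that reason. The region on chromosome 13 at 94758381 to 94768430 was touched by 5 of 7 p50 lists, unstimulated A and D and LPS A, B and C, and by no Pol II list, and it returned at rank 4.85 in the A list. The region on chromosome 10 at 6265461 to 6267500 was touched by 4 p50 lists, 2 of them unstimulated. On chromosome 19 at 41394621 to 41399210, p50 was listed in LPS A, B and C and in no unstimulated list, together with 6 Pol II lists, p65 at 120 min (C) and ATF3 (A). That region returned in the 240 min B list only, at rank 96.6, above its resting ranks of 60.3 and 53.2. It was 1 of the 14 held by well-ranked wider H4ac regions in all 4 lists at 60 and 120 min. Its narrow return therefore did not follow an absence of listed acetylation.

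For p65, the unstimulated list touched 3 returning regions (0.48%, against 0.553%). At 60 min lists A and X touched 4 (0.64%, against 0.348%) and 2 (0.32%, against 1.57%), and at 120 min lists C and X touched 8 (1.27%, against 0.692%) and 2 (0.32%, against 1.33%). The X lists lay below their background and the A and C lists above it, so the libraries differed in direction. Together they reached 14 regions (2.23%, against 2.94%).

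H3K27me3 was listed on 17 returning regions at rest (2.71%, against 3.94% of all joined regions), 10 at 120 min (1.59%, against 2.52%), 14 at 240 min (2.23%, against 2.62%), 15 at 480 min (2.39%, against 3.98%) and 19 in the library with the 7 h delay in its title (3.03%, against 3.77%). Each time had 1 library, and in all 5 the share lay below that of all joined regions. This deficit was shared by all regions in both unstimulated H4ac lists, at 2.66%, 1.42%, 1.62%, 2.51% and 2.47% in the same order. Against those, returning regions lay higher in every library but the one at 480 min. Every H3K27me3 list touched 5 returning regions (0.796%), against 1.09% of all joined regions and 0.524% of those in both unstimulated lists. These were 140370251 to 140370780 on chromosome 4, 79095081 to 79097110 on chromosome 10, 130602541 to 130603820 and 87774201 to 87775940 on chromosome 3, and 96882601 to 96892040 on chromosome 11. None of these 5 met another of the targets, and all 5 returned in the 240 min A list only. The repressive mark was therefore listed on them through rest and LPS while H4ac went in and out of the lists. Of the regions with H3K27me3 at rest, 3 were among the 306 with a wider H4ac region at 60 or 120 min and 14 among the 322 without.

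**Figure D5:**
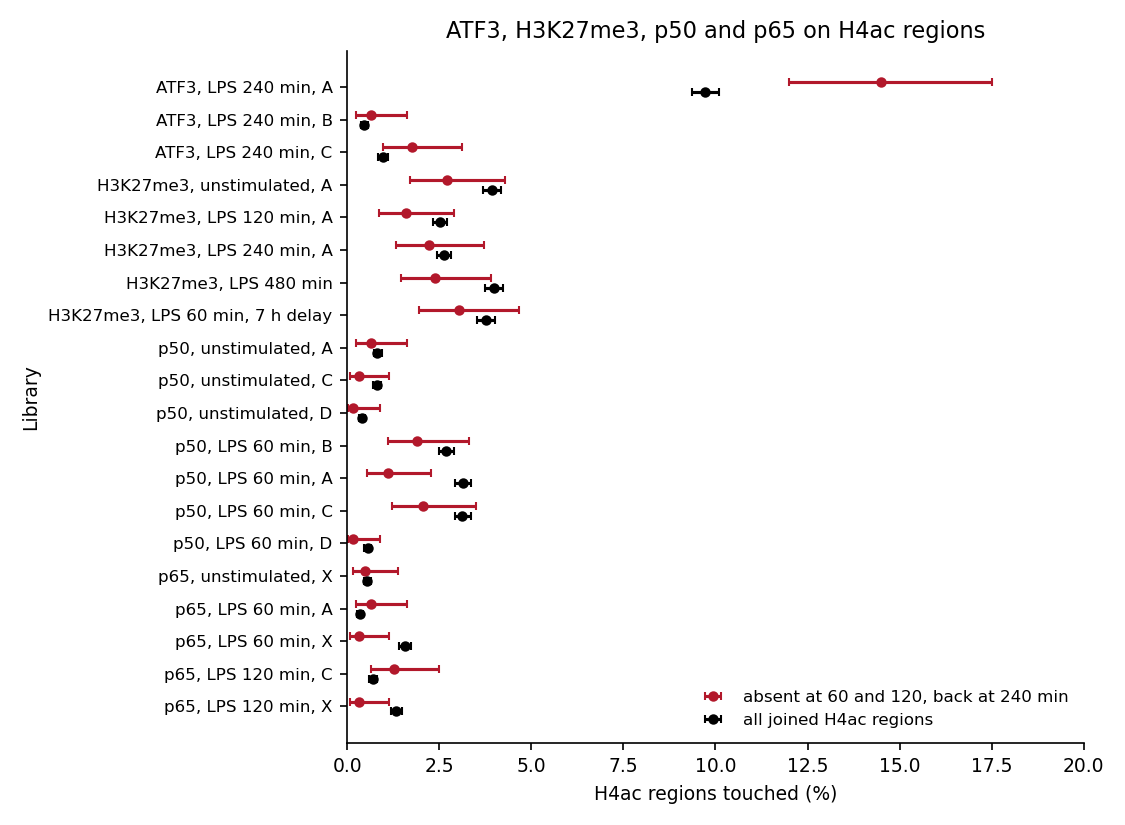
Share of H4ac regions touched (horizontal axis, %) by ATF3, p50 and p65 regions up to 10 kb and H3K27me3 regions up to 100 kb, by library (vertical axis). Points are shares and bars 95% Wilson intervals over regions. Returning regions (red) lay above all joined regions (black) in the 3 ATF3 libraries, at 14.5% against 9.72% in library A, and below them in the 5 H3K27me3 and 7 p50 libraries. Regions in both unstimulated lists, compared in the text, are not drawn.

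No list of any other target touched 369 of the 628 returning regions (58.8%). That share was 71.3% for persistently absent regions, 48.2% for all joined regions and 24.0% for regions in all 8 H4ac lists. Most returning regions were therefore known in these data by H4ac alone.

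Returning regions were spread over the genome with some clustering. They made up 3.23% (chromosome 12) to 6.91% (chromosome 19) of the regions held by both unstimulated lists. Another returning region lay within 10 kb of 53 of them (8.44%) and within 50 kb of 122 (19.4%). Of all regions in both unstimulated lists, 2.12% had a returning region within 10 kb and 8.44% within 50 kb. A persistently absent region lay within 50 kb of 182 returning regions (29.0%), beside 19.3% of all regions in both unstimulated lists. Clustering was not particular to returning regions. Another persistently absent region lay within 10 kb of 13.0% of persistently absent regions and within 50 kb of 33.1%. The shares for all regions in both unstimulated lists were 5.74% and 19.3%. One group of returning regions lay on chromosome 19. There the 20800 bp region was followed by returning regions at 46594981 to 46599810 and 46602211 to 46603900. All 3 lay within well-ranked wider H4ac regions in the 4 lists at 60 and 120 min. This group was picked out after its values were seen. Neighbours that lay in 1 wide acetylated stretch are not independent of each other.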

How the data were processed

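ChIP-seq region lists of 35 libraries were used, 1 list per library. Each list, as deposited, gives for every region a position, a scale number and a score. The authors' score was used for nothing but ranks inside each list. Build mm9 is named in the submitters' processing notes, and the sources used here do not give the aligner, the region caller or its thresholds. The lists hold no counts, so depth, and the precision it gives, is unknown. Groups and letters came from the labels.

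Regions up to 10 kb (H4ac, p50, p65, ATF3) or 100 kb (Pol II, H3K27me3) were used, and an overlap of at least 1 bp counted as a touch. Coordinates are 1-based. Shares per library were compared by exact sign-flip or permutation tests, and 95% intervals are Wilson intervals. The code, in Python 3.11.15 with pandas 2.3.3 and scipy 1.17.1, was tested on simulated lists. Alternatives were other width limits, overlaps, score thresholds, joining distances and libraries left out. Members and lists were chosen with earlier results of these data known.

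Regions named by position were the 10 best ranked at rest, the 5 best ranked in both 240 min lists, those with most lists of Pol II, p50, ATF3 with p65, or H3K27me3, and the 3 longest, of which the text names some. Gene names, gene lists and sequences were not used here, because the reference tables at hand are for another build.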

Additional observations from a re-analysis of the deposited data

How the results depend on the processing

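The number of returning regions depended on how the lists were read. From 628 it went to 51 with regions of every width, 181 with regions up to 1 kb, 364 with lists of equal length, 106 without those in any wider region at 60 or 120 min and 322 without those in a region of 10 to 100 kb. The last setting was chosen after seeing the data. Letters A and B alone gave 1008 and 1021, and the pattern within both letters, used as a replicate block, 191. Leaving out 1 library gave 254 (without 240 min A) to 1122 (without 60 min A), with 1032 without unstimulated B and 988 without 120 min A. The other 6 settings gave 454 to 664. The Pol II difference of 4.53 points reversed to -1.82 with H4ac regions up to 1 kb, kept its sign at 1.29 to 10.0 points in 7 other settings, and was 3.99 to 4.9 with 1 library left out (exact sign-flip p = 0.0312 each). With the letters as a replicate block it was 4.57 (exact p = 0.5, the smallest that 2 letters allow). The p50 difference stayed positive and past no threshold, at 0.414 to 1.47 points in 7 settings, with 0.743 in the replicate block, and at 0.69 to 1.33 with 1 library left out. Deviations from the group means correlated at 0.0473 to 0.22 between same-lettered H4ac libraries, 0.0784 for Pol II and 0.0394 to 0.206 for p50, so the letters were not taken to pair the libraries. The cause of these shifts was not tested beyond the settings' own construction. Depth is unknown, so absence from a list limits every count.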
